A study of Mus musculus with 45 samples.

Results

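Alveolar macrophages (AM) 6h after intraperitoneal (ip) lipopolysaccharide (LPS) were measured in 3 of the 45 libraries of the series, whose titles end in A161219, B161219 and ip160623. They were chosen by their labels (AM, 6h, ip) and set against the 4 AM libraries of 0h, over all genes of the deposited table. The titles of 3 of these end in A171227, C171227 and D171227, and that of the remaining one ends in the same code as ip160623 (called here the shared code). The cells came from C57BL/6J mouse lung by fluorescence-activated sorting, with no genetic change, dose or age given in the labels, and 0h is the time point without LPS. AM of 2h and 20h ip LPS (2 libraries each), and interstitial macrophages (IM) and inflammatory monocytes (iMo) of 0h and 6h ip LPS (2 libraries in each group), served for comparison. The labels do not say whether replicates came from separate animals, so a p-value here reflects only how these samples vary, which may be technical.

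AM live on the air side of the alveoli, where they take up surfactant and inhaled particles. LPS, a component of the outer membrane of Gram-negative bacteria, is sensed through TLR4 with CD14 and MD-2. The receptor signals through MyD88 to NF-kB and cytokine genes, and through TRIF to interferon-beta, which acts back through its receptor on interferon-stimulated genes. LPS in the peritoneum meets AM only after passage through the body. The systemic response to it also raises circulating cytokines, interferons and adrenal glucocorticoids, which act through the glucocorticoid receptor.

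The 3 libraries carried the defining genes of AM. Chil3, a chitinase-like lectin, stood at 6982, 8901 and 4081 TPM (a transcript abundance scaled by gene length and library total) in A161219, B161219 and ip160623 of 6h, and Siglecf, the surface lectin used to identify AM, at 97.6, 105 and 53.0 TPM. The summed level of 25 AM marker genes was 8800 to 17200 TPM at 6h and 9040 to 21400 TPM at 0h, so the groups overlapped. The sum of 16 IM markers was 10.4 to 32.9 TPM at 6h and 7.19 to 41.3 TPM at 0h, and C1qa of that list was at 1.20 to 1.75 TPM at 6h. Pearson's r of log2(TPM + 1) was 0.958 to 0.977 within the 6h libraries (3 pairs), 0.939 to 0.966 within 0h (6 pairs) and 0.911 to 0.967 between the times (12 pairs), and no columns were identical. Rn45s, a ribosomal RNA precursor, took 11.6 to 30.8% of the column sums at 6h and 6.48 to 30.4% at 0h, and counts rescaled without it are given below.

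The shared code is the only one found at both times, so that for the other libraries the title code and LPS cannot be told apart. Differences were therefore also read in the shared-code pair, 1 library against 1, as a description. A gene was called where limma's moderated test on log2(TPM + 1), fitted over 27 libraries, gave a Benjamini-Hochberg adjusted p under 0.05 among 8937 genes. Only genes called are said to have risen or fallen. The median log2 difference between 6h and 0h over the tested genes was -0.156, and it was subtracted from each fold change given below. The test and its adjusted p are of the difference before this subtraction.

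Of the 8937 genes, 83 rose (0.929%) and 33 fell (0.369%) in AM at 6h. The risers were led by Saa3, Lcn2 and S100a9, and the fallers, gene models aside, by Inmt, Clec1b and Clec7a. In the shared-code pair, 70 of the 83 risers were more than 1 log2 unit above 0h and 19 of the 33 fallers more than 1 below, but that pair was part of the fit. A161219 gave the highest 6h value for 49 of the 83 risers, and ip160623 the lowest for 65. The same shares over all tested genes were not counted. At 6h ip160623 had 5850 genes at 5 TPM or more, against 6458 in A161219 and 6560 in B161219. Without 6h A161219 the fit called 37 risers and 11 fallers, and without 6h B161219 38 and 13. Rescaled without the 2 genes Rn45s and Lars2, the median difference was 0.138, and 84.6% of the called genes were higher against 71.6% as fitted. The deposited columns had unequal sums, 362554 to 403225 TPM at 6h and 382880 to 509796 TPM at 0h. Rescaling changed these sums too, and with them the genes passing the filter on low values and the weight of the 1 TPM added before the logarithm. The part of the 2 genes alone in this shift was not tested.

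With both shared-code libraries left out, 68 genes were called higher and 42 lower, and the pair then provided values that those calls had not used. All 68 of the higher genes were also above 0 in the pair, with a median difference of 1.47 log2, and 51 of them (75%) were more than 1 log2 above. Over all genes 1.83% were so. Of the 42 lower genes, 39 were below 0 in the pair, with a median of -0.729, and 15 (35.7%) were more than 1 log2 below, against 0.795% of all genes. A fit with the title code as a further term, in which the shared-code pair links 0h to 6h within AM, called 15 genes. All 15 were higher at 6h and 12 were among the 83: Ap1s2, Dusp1, Fkbp5, Hp, Klf9, Lcn2, Ly6c2, Rtp4, S100a8, S100a9, Saa3 and Tbc1d14. Bcl3, Ccl9 and Nfkbia were called only in that fit, and none of the 33 fallers was.

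**Figure D1:**
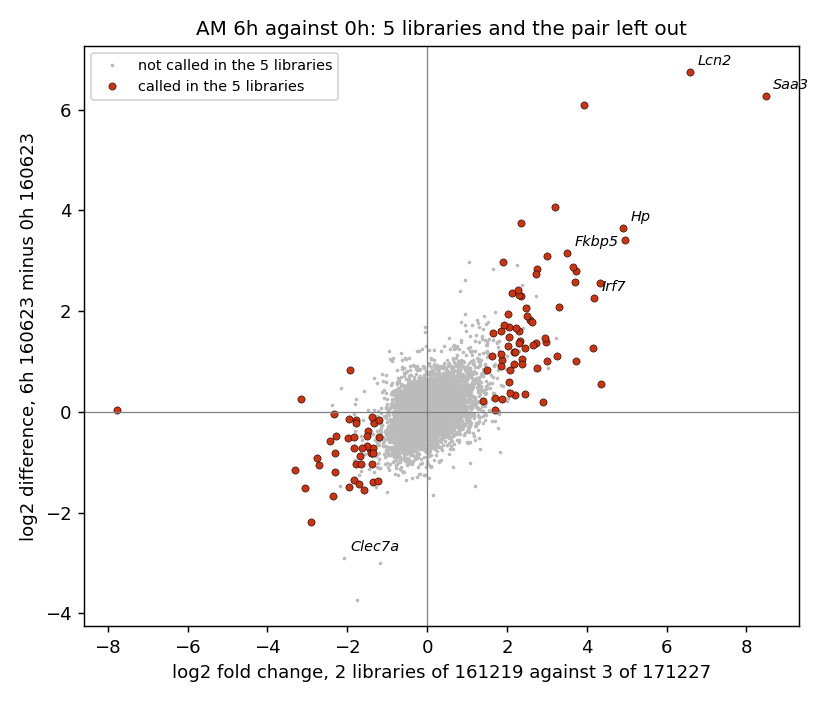
Log2 fold change of each gene in 2 AM libraries of 6h (A161219 and B161219) against 3 of 0h (A171227, C171227 and D171227) on the x axis, and the log2 difference of the shared-code pair on the y axis, each less its median. Red points are genes called in the fit over all groups that leaves out only the shared-code pair. All 68 called higher lie above 0 on the y axis, 39 of the 42 called lower lie below it, and the gene model 5930403L14Rik lies alone at the far left, near 0 on the y axis.

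Acute-phase and secreted defence proteins held the largest rises. These proteins bind lipids, iron or bacterial products and are made in quantity by liver and barrier tissues during inflammation. Of 14 tested members 4 rose (Saa3, Lcn2, Hp and Pglyrp1) and none fell, and the median of the list was 1.11. Saa3, a serum amyloid A of extrahepatic cells, was listed at 0.974, 0 and 2.15 TPM in 0h A171227, C171227 and D171227 and at 0.951 TPM in the 0h library of the shared code. It was at 832, 400 and 158 TPM in A161219, B161219 and ip160623 of 6h. The lowest 6h library was far above the highest of 0h, although the 6h libraries differed several-fold among themselves. That is a rise of 7.81 on the log2 scale (SE 0.59, limma adjusted p 1.38e-08), against 6.27 in the shared-code pair.

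Lcn2, a siderophore-binding protein that withholds iron from bacteria, was at 0.443 to 4.02 TPM at 0h and at 308, 263 and 163 TPM in A161219, B161219 and ip160623 of 6h. It rose by 6.59 (SE 0.495, adjusted p 1.38e-08), and differed by 6.74 in the shared-code pair. Hp, the hemoglobin scavenger haptoglobin, was at 1.58 to 4.65 TPM at 0h and at 151, 79.1 and 33.4 TPM at 6h, a rise of 4.48 (SE 0.418, adjusted p 9e-07). Pglyrp1, a secreted peptidoglycan-binding protein, rose by 2.34 log2. For each of these genes the groups were apart, and for Saa3, Lcn2 and Hp A161219 was highest and ip160623 lowest. Slpi, an inhibitor of neutrophil elastase, had the lowest value of the list, -1.37, and did not pass the test.

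**Figure D2:**
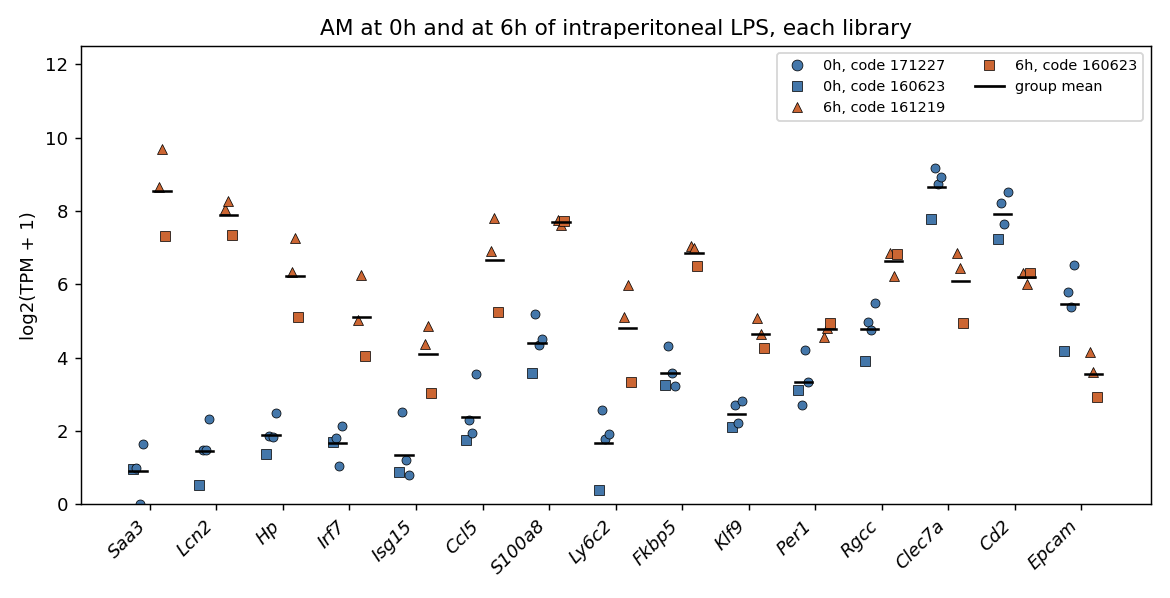
Level of 15 genes on the log2(TPM + 1) axis in each AM library of 0h (blue) and 6h (orange), with squares for the shared code, circles for the other 0h libraries and triangles for A161219 and B161219, and a line at the group mean. For Saa3 the 6h libraries range from 158 to 832 TPM and those of 0h from 0 to 2.15 TPM; most of the genes were picked among those whose groups were apart.

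Type I interferon-stimulated genes, which carry out and regulate antiviral defence, held 15 of the 83 risers. Of 39 tested members 15 rose and none fell, 39 of 39 lay above the median of all genes, and the median of the list was 1.47. Irf7, the transcription factor that amplifies interferon production, was at 2.23 TPM in the 0h library of the shared code and at 2.49, 1.08 and 3.37 TPM in A171227, C171227 and D171227. It was at 75.1, 31.8 and 15.5 TPM in A161219, B161219 and ip160623 of 6h. The groups did not overlap, and Irf7 rose by 3.60 (SE 0.513, adjusted p 0.000392). Slfn4, a Schlafen family member of myeloid cells, rose by 3.37, from 0.518 to 1.64 TPM at 0h to 11.2 to 26.5 TPM at 6h. Isg15, the ubiquitin-like modifier, rose by 2.89, from 0.752 to 4.76 TPM to 7.26 to 27.9 TPM. Rtp4, a Golgi chaperone induced by interferon, rose by 2.69, from 0.716 to 2.86 TPM to 11.1 to 24.0 TPM.

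The other risers of the list were the 2'-5' oligoadenylate synthetase genes Oas2 and Oas3 and their relatives Oasl1 and Oasl2, together with Rsad2, Ifit1, Phf11b, Ifi204, Isg20, Slfn1 and Slfn8. Their 6h levels were low, with none above 29.0 TPM in any library. Mx1, a GTPase that blocks viral replication, was at 0.135 to 0.407 TPM at 0h and 0.776 to 4.16 TPM at 6h, short of the threshold (adjusted p 0.259). Of 18 interferon-inducible GTPases and interferon-gamma genes none was called, with a median of 0.648, and Ifi47 had the largest value, 1.57. In the Ifitm family, whose membrane proteins block viral entry and whose members are alike in sequence, Ifitm3 and Ifitm1 rose and the other 3 tested did not pass. None of the 5 was called without 6h A161219, without 6h B161219 or with the title code as a term, 3 were without 0h A171227, and 1 was without any single one of the other 0h libraries. Ifitm3's adjusted p reached 0.347 without 6h A161219. Without 6h A161219, 9 of the 39 type I genes were called, and with the title code as a term Rtp4 alone was.

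The promoters of 4 risers that hold the letters of the interferon-stimulated response element are shown. Isg15, Rsad2 and Ifit1 are of this list, and Saa3 is of the acute-phase list. The sequences are RefSeq windows of 300 bases on GRCm38.p6, from 250 bases before to 50 after the transcription start, printed 5′ to 3′ along the gene. Capitals mark matches to the core GAAANNGAA on either strand, and overlapping matches run together. The Isg15 window was chr4:156200769-156201068 on the minus strand. The Rsad2 window was chr12:26456403-26456702 on the minus strand. The Ifit1 window was chr19:34640639-34640938 on the plus strand. The Saa3 window was chr7:46715627-46715926 on the minus strand.
Isg15: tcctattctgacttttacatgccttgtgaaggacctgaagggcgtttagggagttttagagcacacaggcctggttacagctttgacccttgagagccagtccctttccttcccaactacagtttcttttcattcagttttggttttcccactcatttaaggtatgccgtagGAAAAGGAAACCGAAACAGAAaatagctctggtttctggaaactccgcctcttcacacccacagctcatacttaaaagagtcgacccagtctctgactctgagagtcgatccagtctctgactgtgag
Rsad2: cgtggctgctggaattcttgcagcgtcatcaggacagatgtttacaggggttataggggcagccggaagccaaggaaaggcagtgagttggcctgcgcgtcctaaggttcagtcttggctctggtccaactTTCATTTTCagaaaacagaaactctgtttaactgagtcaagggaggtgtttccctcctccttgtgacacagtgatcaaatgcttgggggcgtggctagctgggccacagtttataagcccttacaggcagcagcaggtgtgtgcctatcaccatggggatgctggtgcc
Ifit1: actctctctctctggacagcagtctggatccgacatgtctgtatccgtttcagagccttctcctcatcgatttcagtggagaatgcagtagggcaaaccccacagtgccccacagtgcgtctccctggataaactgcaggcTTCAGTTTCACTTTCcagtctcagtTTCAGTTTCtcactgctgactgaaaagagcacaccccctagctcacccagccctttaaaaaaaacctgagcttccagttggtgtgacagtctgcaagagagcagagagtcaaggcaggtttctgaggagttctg
Saa3: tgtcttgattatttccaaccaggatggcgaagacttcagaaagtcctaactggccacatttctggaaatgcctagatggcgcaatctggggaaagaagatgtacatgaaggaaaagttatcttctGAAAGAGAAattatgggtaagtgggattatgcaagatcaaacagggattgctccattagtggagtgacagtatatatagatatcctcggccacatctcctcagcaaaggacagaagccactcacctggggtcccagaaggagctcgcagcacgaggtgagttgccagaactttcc

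Of the 15 type I risers 12 had a window in RefSeq under their symbol, 15 windows in all, and 7 of these (46.7%) held the core. They belonged to Ifit1, Isg15, Oas3, Phf11b, Rsad2 and Slfn8. Of all 32851 windows of this length 8.56% held it, and of the 9003 windows of tested genes 7.74%. Isg15 and Ifit1 each had 3 matches and Rsad2 and Saa3 had 1. A match is a string of letters and was not tested as a binding site. The same search for ACANNNTGT, a spaced pair of the sites bound by the glucocorticoid receptor, found 1 of the 11 windows of the glucocorticoid-induced risers (Lcn2) and 4.21% of the windows of tested genes. A search for GGGANNTCC, a core bound by NF-kB, found 0 of the 15 type I windows. It found 6.02% of the windows of all risers and 5.88% of those of tested genes. NF-kB sites of other letters or spacing were not searched, so these shares do not cover them.

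Genes that glucocorticoids are known to induce were also among the risers. Of 17 tested members 8 rose (Lcn2, Il1r2, Fkbp5, Klf9, Dusp1, Per1, Tsc22d3 and Ddit4), none fell, and the median was 0.91. Fkbp5, a co-chaperone that dampens the glucocorticoid receptor and is a textbook target of it, was at 8.54 TPM in the 0h library of the shared code and at 18.9, 11.1 and 8.33 TPM in A171227, C171227 and D171227. At 6h it was at 126, 132 and 89.3 TPM in A161219, B161219 and ip160623. The 3 libraries of 6h were close together and far above 0h, and the gene rose by 3.41 (SE 0.356, adjusted p 7.19e-06). Klf9, a Kruppel-like repressor, rose by 2.35 (SE 0.306, adjusted p 0.000222), from 3.29 to 6.08 TPM at 0h to 18.1 to 32.6 TPM at 6h.

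Dusp1, the phosphatase that switches off p38 and JNK, was at 22.4, 20.9, 22.6 and 46.2 TPM in the shared-code, A171227, C171227 and D171227 libraries of 0h and at 106, 113 and 126 TPM at 6h, a log2 fold change of 2.23. Il1r2, a decoy receptor that binds interleukin 1 without signalling, rose by 3.45 and was listed at 0 TPM in 3 of the 4 libraries of 0h against 6.41 to 12 TPM at 6h. Tsc22d3, which encodes the glucocorticoid-induced leucine zipper GILZ, rose by 1.56, from 27.4 to 69.6 TPM to 113 to 125 TPM. Per1, a repressor of the circadian clock, rose by 1.59, and its relative Per2, outside the list and named after its values were seen, rose by 1.67. Time of day of collection is not in the labels used here, and its part in the values of Per1 and Per2 was not tested. In the fit with the title code as a term, Dusp1, Fkbp5, Klf9 and Lcn2 were called of this list. The count was 5 without 0h A171227, without 6h A161219, and without both shared-code libraries.

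Among inhibitors of cytokine signalling, Il1r2, Ier3, Dusp1 and Socs3 rose of 19 tested. Socs3, the inhibitor of interleukin 6 receptor signalling, rose by 1.83 to 11.5 to 23.2 TPM. Among 20 immediate early genes, which respond to a stimulus within minutes without new protein, Ier3, Dusp1, Dusp2 and Nr4a1 rose, the list's median was 0.092, and 2 of the 4 were called without 6h A161219.

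Cytokine genes that LPS is known to induce in macrophages were mostly not called. Of 15 tested proinflammatory cytokines and enzymes 1 rose, Acod1, which makes itaconate, by 2.18 to 1.89 to 12.4 TPM, and the list's median was 0.243. Tnf was at 3.33 to 13.7 TPM at 0h and at 9.13, 7.46 and 4.71 TPM at 6h, so the times overlapped, and its log2 fold change was -0.05 (SE 0.354). Il1b was at 5.68, 86.7, 48.8 and 40.1 TPM in the shared-code, A171227, C171227 and D171227 libraries of 0h and at 43.9, 43.1 and 15.8 TPM at 6h, so the times overlapped here too. Il6 was at most 0.474 TPM at either time. Acod1 was not called without 6h A161219 (adjusted p 0.255), 6h B161219 or 0h A171227, or with the title code as a term. The chemokines gave 2 risers of 22, 4 without 0h A171227 or without 6h ip160623, and 1 with the title code as a term, which was Ccl9. Ccl5, which draws T cells and monocytes, rose by 4.43 (SE 0.654, adjusted p 0.000503), from 2.37 to 10.8 TPM to 223, 119 and 37.2 TPM. Ccl2, the ligand of CCR2, rose by 2.91 to 1.79 to 12.1 TPM. Cxcl10, an interferon-induced ligand of CXCR3, was at 44.2 and 40.6 TPM in A161219 and B161219 but at 3.94 TPM in ip160623, within the 0h range, and did not pass.

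None of 17 genes of the NF-kB pathway and its feedback was called, with a median of 0.214. Nfkbia, the inhibitor that NF-kB itself induces, was at 23.7 TPM in the 0h library of the shared code and 128, 99.3 and 139 TPM in the other 0h libraries, and at 199, 207 and 159 TPM at 6h. All 6h libraries were above all of 0h, but the 0h libraries were far apart (log2 fold change 1.36, adjusted p 0.326), and with the title code as a term its adjusted p was 0.0153. Bcl3, an atypical member of the inhibitor family, was the only other one of the list called in that fit (adjusted p 0.0251), and 4 of the 17 were more than 1 log2 above 0h in the shared-code pair. Without 6h ip160623, 1 of the 17 was called. Of 19 genes of the TLR4 receptor complex and its adaptors none was called, and the median was -0.02. Cd14 was at 32.7 to 107 TPM at 0h and 39.7 to 62.9 TPM at 6h. The simulation of this comparison recovered 13.5% of genes changed by 2 times, 90.5% at 4 times and 99% at 8 times. Small shifts in these lists were thus mostly not detectable. The changed genes were drawn from those averaging about 5 TPM or more over the fitted libraries. Simulated libraries of the same title code shared no deviation. The shares therefore do not cover lower genes or differences between codes.

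**Figure D3:**
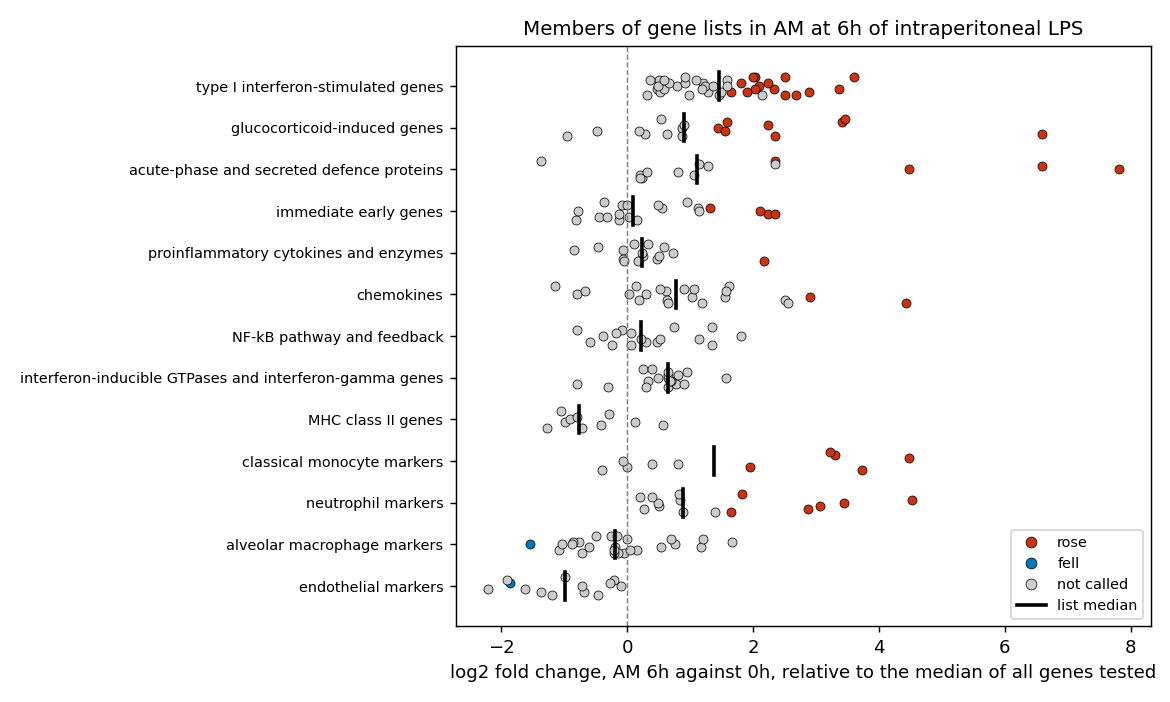
Log2 fold change of AM at 6h against 0h, less the median over tested genes, for the tested members of 13 lists; red members rose, blue fell, grey were not called, and a black bar marks each list's median. The type I interferon-stimulated genes all lie above 0 with a median of 1.47, while the NF-kB list (median 0.214) has no called member.

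Genes that define AM and their metabolism were mostly short of the threshold. Of 25 AM markers none rose and 1 fell, Cd2, with a median of -0.198. Marco, a scavenger receptor, was at 111 TPM in the 0h library of the shared code, at 39.2 to 53.6 TPM in the other 0h libraries and at 151 to 176 TPM at 6h, and did not pass (adjusted p 0.34). In the shared-code pair its difference was 0.43. None of 10 MHC class II genes, which present peptides to T cells, was called, although 8 were below the median of all genes and the list's median was -0.758. H2-Aa was at 58.6 to 316 TPM at 0h and 38.7 to 86.6 TPM at 6h. Scd1, a fatty acid desaturase, rose by 1.4 among 20 lipid handling genes. Pfkl, the liver-type phosphofructokinase, rose by 1.83 among 16 genes of glycolysis, and none of 21 genes of oxidative phosphorylation was called. Mcm5, a subunit of the replicative helicase, rose by 1.59 among 22 cell cycle genes. Ear6 and Ear7, eosinophil-associated ribonucleases that AM also express, rose by 2.42 and 2.62 to 40.2 to 59.6 TPM and 43.5 to 67.7 TPM, but reads of these near-identical genes cannot be told apart with certainty. No gene was called among MHC class I and immunoproteasome genes, scavenger and phagocytic receptors, inflammasome genes, LXR targets, cholesterol synthesis genes or lineage transcription factors.

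Markers of monocytes and neutrophils were also among the risers. Of 10 classical monocyte markers 5 rose, among them Hp, Plac8, Ly6c2 and Ms4a4c, and 3 of the 10 were called without 6h A161219 or without 6h B161219. Ly6c2, the surface antigen that marks classical monocytes, was at 0.305, 5.01, 2.44 and 2.77 TPM in the shared-code, A171227, C171227 and D171227 libraries of 0h and at 62.2, 33.4 and 9.15 TPM in A161219, B161219 and ip160623 of 6h, a rise of 3.30 (SE 0.615, adjusted p 0.0058). Ccr2, the chemokine receptor of the same cells, was at 1.95 to 4.85 TPM at 0h and 0.561 to 2.77 TPM at 6h. Vcan and F13a1, further monocyte genes, were at most 4.80 TPM at 6h. The sum of the 10 markers, which is mostly Chil3, was 4200 to 9150 TPM at 6h and 3770 to 9860 TPM at 0h, and none was at 0.

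Of 15 tested neutrophil markers 6 rose: S100a9, S100a8, Retnlg, Ngp, Mmp9 and Stfa2l1, the last listed at 0 in all 0h libraries and of a family of near-identical copies. S100a8 and S100a9, the subunits of calprotectin, were at 194 to 214 TPM and 142 to 175 TPM at 6h, against 11 to 35.7 TPM and 1.44 to 24.6 TPM at 0h (log2 fold changes 3.44 and 4.52). Here the 6h libraries were close together, unlike those for Saa3. Ly6g, the defining surface antigen of neutrophils, was at 0 TPM in all libraries of 0h and in A161219 and B161219, and at 0.628 TPM in ip160623 of 6h. The sum of the 16 markers was 796 to 976 TPM at 6h, 254 to 557 TPM at 0h, 17900 and 58400 TPM in IM of 6h and 1860 and 3300 TPM in iMo of 6h. In bulk libraries more cells of a type and more RNA per cell cannot be told apart, and the part of other cells in these rises was not tested.

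The levels of the risers in AM were set beside those of the sorted IM and iMo of the same time. For 48 of the 83 (57.8%) every 6h AM library was below all 4 libraries of IM and iMo, against 13.4% of all tested genes. Saa3 in AM averaged 2.55% of its mean in IM and 2.92% of that in iMo, Lcn2 1.78 and 5.04%, Hp 3.46 and 3.29%, Irf7 4.45 and 6.28%, and S100a9 0.989 and 21.4%. For 23 of the 83 (27.7%) every AM library was above all 4 libraries, against 28.2% of all genes. Among these were Fkbp5, Klf9, Per1, Tbc1d14, Ap1s2, Rgcc and Adamtsl4. Fkbp5 was at 89.3 to 132 TPM in AM and at 34.2 to 79.6 TPM in IM and iMo, and Klf9 at 18.1 to 32.6 TPM and 8.81 to 15.7 TPM. The median ratio of the highest to the lowest 6h AM library was 2.48 for the 48 genes and 1.37 for the 23. A161219 was highest for 36 of the 48 and 9 of the 23, and ip160623 lowest for 38 and 18. The median log2 fold change was 2.31 for the 48 and 1.75 for the 23. In the shared-code pair 42 of the 48 and 20 of the 23 were more than 1 log2 above 0h. The fit with the title code as a term called 8 of the 48 and 4 of the 23. This division of the risers was made after the values were seen.

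**Figure D4:**
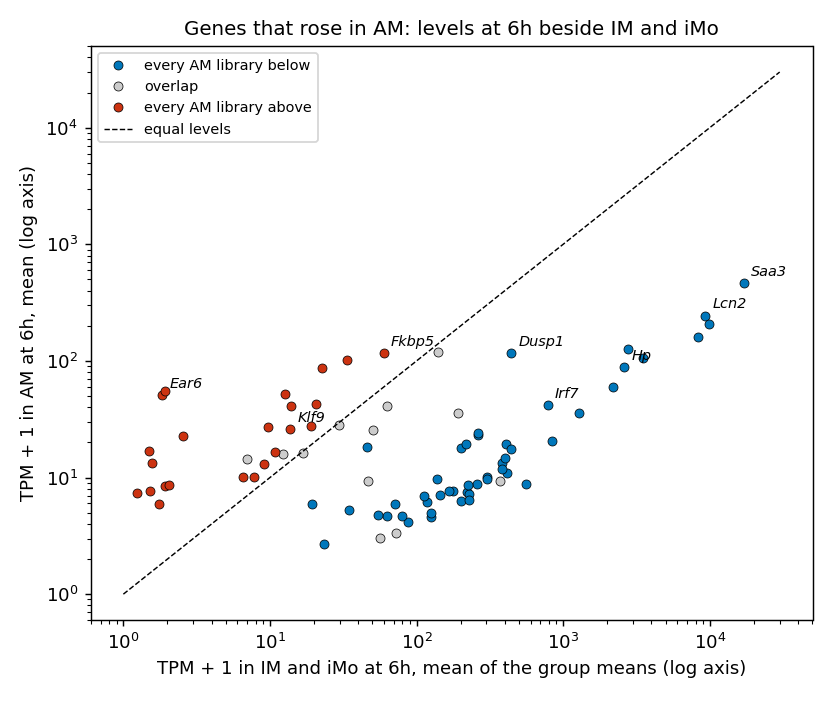
Mean TPM + 1 of the 83 risers in AM at 6h (y axis) against the mean of the IM and iMo group means at 6h (x axis), both on log axes, with a dashed line at equal levels. Blue points are the 48 genes with every AM library below all IM and iMo libraries, among them Saa3, Lcn2, Hp and Irf7, red points are the 23 with every AM library above, among them Fkbp5 and Klf9, and grey points are the other 12.

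The fallers were fewer and varied with the 0h libraries. Clec7a, the beta-glucan receptor Dectin-1, was at 218, 579, 423 and 488 TPM in the shared-code, A171227, C171227 and D171227 libraries of 0h and at 86.1, 116 and 30.0 TPM in A161219, B161219 and ip160623 of 6h. It fell by 2.41 log2 (SE 0.552, adjusted p 0.0143), and its difference in the shared-code pair was -2.91. Without 6h ip160623 its adjusted p was 0.125, and it was not called without 0h A171227 or without both shared-code libraries either. Cd2, an adhesion receptor better known from T cells that mouse AM also carry, fell by 1.55, from 151 to 367 TPM to 63.3 to 79.0 TPM. Pdlim1 and Ahnak, proteins of the actin cytoskeleton and the submembrane scaffold, fell by 1.59 and 1.74, and their differences in the shared-code pair were -1.44 and -1.49. Crip1, a small zinc-binding LIM protein, fell by 1.95, from 271 to 695 TPM to 61.1 to 126 TPM.

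Several fallers are on the marker lists of other lung cells. Inmt and Mgp, of fibroblasts, fell by 2.82 and 2.29, and Clec1b, the platelet receptor CLEC-2, by 2.76, from 9.56 to 45.3 TPM to 1.48 to 4.14 TPM. Epcam, of epithelium, fell by 1.76, Tppp3, of ciliated cells, by 2.14, and Egfl7, of endothelium, by 1.86. Of the tested members of these lists, 2 of 6 fell for fibroblasts and smooth muscle, 1 of 3 for platelets, 1 of 13 for endothelium, 1 of 2 for airway epithelium and 1 of 7 for alveolar epithelium. In the last list 3 of the 7 were above the median of all genes, and its median in the shared-code pair was 0.134. At 6h Clec1b, Epcam and Mgp were higher in every AM library than in any of IM and iMo. Epcam was at 6.66 to 16.7 TPM in AM against 0 to 0.889 TPM in the others. For Inmt, Tppp3 and Egfl7 the levels overlapped. The sum of 9 platelet markers was 13.7 to 64.4 TPM at 0h, against 9.56 to 45.3 TPM for Clec1b alone. Without the shared-code library of 0h, 5 endothelial and 3 fibroblast members fell, while no endothelial member fell without any 1 of the other 6 libraries and no fibroblast member without 6h A161219 or 6h ip160623. Inmt was at 15.1, 10.8 and 43.3 TPM in 0h A171227, C171227 and D171227 but at 1.10 TPM in the shared-code library of 0h, and at 0 to 1.05 TPM at 6h. The sum of 13 endothelial markers was 106, 51.6 and 47.0 TPM in 0h A171227, C171227 and D171227, 11.1 TPM in the shared-code library of 0h and 5.90 to 9.98 TPM at 6h. The sum of 13 fibroblast and smooth muscle markers was 52.7, 30.3 and 146 TPM, 10.2 TPM and 6.76 to 9.94 TPM in the same order. A171227, C171227 and D171227 of 0h stood above the other 4 libraries in these sums and in those of epithelium. The alveolar epithelial sum was 142, 99.8 and 278 TPM in them, 55.4 TPM in the shared-code library of 0h and 57.9 to 80.1 TPM at 6h. The airway epithelial sum was 432, 236 and 352 TPM, 231 TPM and 63.8 to 81.8 TPM in the same order. Tppp3 alone was at 49.4 to 62.7 TPM at 6h and so made up most of the airway sum there. Of the 11 airway members 2 were tested. None of the 13 endothelial markers was at 0 in any 0h library, and the part of other cells in these falls was not tested. In 27 of the 33 fallers the shared-code library was the lowest of the 0h libraries, 87 genes fell without it, and 11 to 21 without any 1 of the other 0h libraries. That library had 5570 genes at 5 TPM or more, against 6628 to 7042 in the other 0h libraries. The share of all tested genes that were lowest in it was not counted, so the 27 have no base to be read against. The gene model 5930403L14Rik, at 486, 596 and 412 TPM in 0h A171227, C171227 and D171227, was at 0.154 TPM in the shared-code library of 0h and at most 1.18 TPM at 6h, so that it followed the title code.

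The 6h libraries were also set against AM of the other ip times, in which no 0h library takes part. Between 6h and 2h no gene was called by limma, and 110 had an unadjusted p under 0.05. Saa3 was at 54.9 and 36.1 TPM at 2h and Lcn2 at 60.3 and 34.4 TPM, below every 6h library, with log2 differences of 3.17 (adjusted p 0.915) and 2.47. Rsad2 was at 8.63 and 10.7 TPM at 2h, within or above the 6h range of 2.89 to 8.82 TPM. Between 6h and 20h 3 genes were called, all higher at 6h, with 350 at an unadjusted p under 0.05. They were Per2, at 6.71 to 8.36 TPM at 6h and 1.03 and 1.02 TPM at 20h (1.94, SE 0.317, adjusted p 0.00762), Hp, at 5.32 and 13.5 TPM at 20h (2.81, SE 0.5, adjusted p 0.0192), and Adamtsl4, a secreted fibrillin-binding protein, at 5.15 and 5.71 TPM at 20h (1.91, SE 0.375, adjusted p 0.0373). Fkbp5 was at 27.7 and 25.6 TPM at 20h, below every 6h library, with an adjusted p of 0.116. None of the 3 was called without 6h A161219 or without 20h A161219, and 96 genes, 11.5% of them higher at 6h, were called without the shared-code library of 20h. The remaining 20h library, A161219, had a summed level of the 16 IM markers of 913 TPM against 11.2 TPM in the shared-code library of 20h, and its part in these values was not tested. Of the 83 risers, 69 had their highest mean at 6h, 10 at 2h and 4 at 20h, but the choice of these genes at 6h favours that time.

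**Figure D5:**
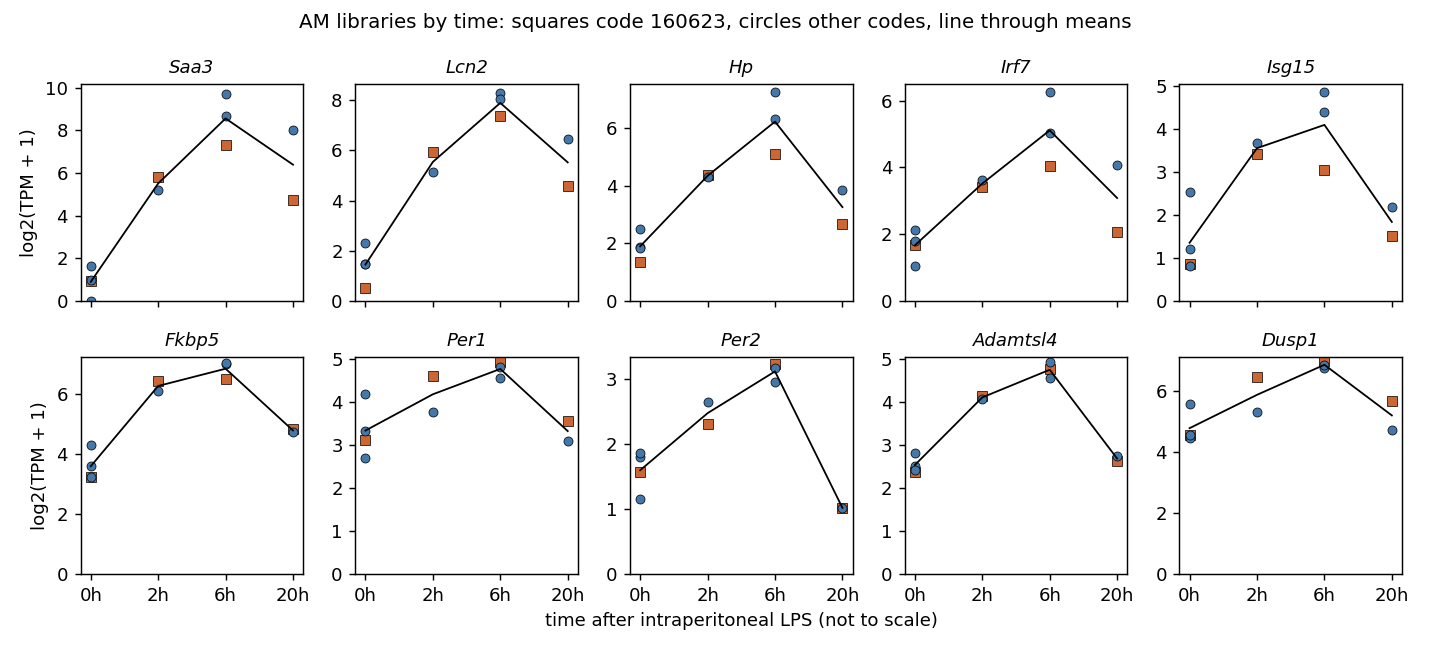
Level of 10 genes on the log2(TPM + 1) axis in each AM library at 0, 2, 6 and 20h of ip LPS (time not to scale), with squares for the shared code, circles for the other codes and a line through the means. All 10 have their highest mean at 6h, and Per2 at 20h, at 1.02 and 1.03 TPM, lies below its 0h libraries.

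The 6h response of AM was tested against that of IM and of iMo through the difference of the differences. It differed from IM for 697 genes (7.8%) and from iMo for 703 (7.87%). The median differences were 0.392 and 0.336, and were subtracted from the values given below. The calls and adjusted p-values are of the differences before this subtraction. Saa3, Lcn2, Hp, Irf7, Isg15, Ccl5 and Fkbp5 were not called in either test. The simulation of the test against IM recovered 0% of genes changed by 2 times, 41.5% at 4 times and 84.5% at 8 times. A gene not called may thus still differ by 4 times or so, and the test against iMo was not simulated. Saa3 rose from a mean of 1.02 to 463 TPM in AM and went from 9.37 to 18200 TPM in IM and from 35.8 to 15900 TPM in iMo, a difference from IM of -3.43 (SE 0.972, adjusted p 0.0563). S100a9, Plac8 and Ly6c2 had a higher response in AM than in IM, by 3.13, 3.45 and 3.14. Plac8, Ly6c2 and Ms4a4c had a higher one than in iMo, by 4.47, 3.82 and 2.82. S100a9 is among the 16 neutrophil markers, whose sum in IM was already 22800 and 11300 TPM at 0h, in A171227 and B171227. Plac8 went from 3.86 to 59.1 TPM in AM, from 2610 to 2320 TPM in IM and from 5090 to 2080 TPM in iMo, so its level in AM stayed far below theirs.

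The largest differences from IM lay in genes that were low or little changed in AM. Ccl8, Folr2, C1qa, Cd209f and Mgl2, genes of resident IM, had a 6h minus 0h difference in AM above that in IM by 5.18 to 5.99, with mean levels in AM of both times under 2 TPM. C1qa was at 1.82 and 1.48 TPM in AM of 0h and 6h and at 1030 and 26.0 TPM in IM. For Camp, Ngp, Arg1, Il1a and Ccl3 the difference in AM less that in IM was -4.85 to -6.91. Ccl3, a chemokine of activated macrophages, was at 14.8 and 18.9 TPM in AM and 10.4 and 453 TPM in IM. Tnf, named after its values were seen, was at 8.92 and 7.10 TPM in AM and 4.41 and 70.5 TPM in IM (-4.34, SE 0.584, adjusted p 0.00022). Without either 0h library of IM the count fell to 192 or 174, and without either 6h library of IM to 443 (A161219) or 418 (ip160623).

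Against iMo, Cryba4, Fcor, Ifitm6, Plac8 and Cx3cr1 had the higher response in AM, by 4.43 to 5.15, and Il1rn, Camp, Sdc4, Ccnb2 and Ngp the lower, by -5.47 to -6.03. Cx3cr1, the fractalkine receptor, was at 0.424 and 0.399 TPM in AM and went from 65.0 to 1.36 TPM in iMo. Il1rn, the interleukin 1 receptor antagonist, was at 115 and 86.6 TPM in AM and went from 13.3 to 636 TPM in iMo. Ccnb2, a mitotic cyclin, was at 25.9 and 19.1 TPM in AM and at 0.577 and 38.9 TPM in iMo. The count was 347 and 279 without either 0h library of iMo, 310 without 6h B161219 of iMo and 427 without 6h B161219 of AM. The 0h libraries of IM and iMo all have titles ending in A171227 or B171227, so that LPS and code cannot be told apart in them. With quantile normalization 48.3% of the genes that differed from IM and 51.3% of those from iMo were higher in AM, against 81.6 and 73.8% as fitted.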

How the data were processed

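The authors deposited one table of TPM values (a transcript abundance scaled by gene length and library total), from low-input poly(A) RNA libraries of a modified Smart-seq2 protocol, per the labels' protocols. STAR, HOMER and mm10 are named in the submitters' processing notes; no source used here gives their versions or the annotation. TPM keeps no read depth, so precision was judged from the spread between libraries. Columns of 0h and ip LPS were used, 27 in number; 18 further per-sample columns are of nasal LPS, another route, and were not analysed here. The series text gives 22h where the labels of samples give 20h, and the labels were used.

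Values were taken as log2(TPM + 1). limma 3.58.1 (R 4.3.3) fitted 1 linear model with 12 group coefficients and a mean-variance trend to 8937 of 23594 genes, those reaching 5 TPM in 2 or more libraries; fold changes on this scale understate those of low genes. P-values were adjusted by Benjamini-Hochberg over all genes tested. Simulated data with 200 changed genes served as a test of the fit.

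Named genes are the markers Saa3, Lcn2, Hp and Irf7; the 15 largest rises and 10 largest falls among called genes whose groups were apart and whose higher group averaged 10 TPM or more, gene models passed over; up to 4 called members of each of 38 lists; and up to 5 per direction elsewhere. Members and lists were chosen with earlier results of these data known. The dendritic, lymphocyte and erythroid lists had no called member, and the eosinophil, nonclassical monocyte and iron lists had 1 each. Alternatives covered the pseudocount, the filter, quantile normalization, rescaling without Rn45s and Lars2, array weights, the title code, fewer libraries and each library left out. Some items of the lists are not reported here.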

Additional observations from a re-analysis of the deposited data

Results flagged for a closer look

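In 6 of 63 genes checked, 1 of the 4 AM libraries of 0h stood far from the other 3 on the log2(TPM + 1) scale by Dixon's ratio at its 95% critical value. Chance alone sets off about 1 in 20 such checks of normally spread values. The genes checked were mostly chosen by their calls in these data, so that rate need not hold here. The values of the outlying libraries were 0.154 TPM for 5930403L14Rik and 0.312 TPM for Ccl2 in the shared-code library, 46.2 TPM for Dusp1 in D171227, 0.368 TPM for Il1r2 and 0.849 TPM for Retnlg in A171227, and 5.54 TPM for Pfkl in C171227. For Ccl2, Il1r2 and Retnlg the other 3 libraries were listed at 0, which sets the ratio to 1 however small the outlying value.

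The 6h response of AM differed from that of another cell type by the test of the difference. Against IM the values were 3.13 for S100a9, 3.45 for Plac8, 3.14 for Ly6c2, 3.74 for Inmt, 4.76 for Mgp, 5.99 for Ccl8, 5.87 for Folr2, 5.34 for C1qa, 5.2 for Cd209f, 5.18 for Mgl2, -6.91 for Camp, -5.98 for Ngp, -5.63 for Arg1, -5.4 for Il1a and -4.85 for Ccl3. Klf9 and Per2 had higher responses in AM than in IM, by 1.62 and 1.22. Against iMo they were 4.47 for Plac8, 3.82 for Ly6c2, 2.82 for Ms4a4c, 5.15 for Cryba4, 4.95 for Fcor, 4.76 for Ifitm6, 4.43 for Cx3cr1, -2.89 for Clec1b, -6.03 for Il1rn, -5.86 for Camp, -5.61 for Sdc4 and -5.47 for both Ngp and Ccnb2.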

How the results depend on the processing

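Between 6h and 0h, 116 genes were called, 83 higher and 33 lower. The total was 67 with no filter on low values, 256 with quantile normalization, 247 rescaled without Rn45s and Lars2, 1097 with array weights and 63 with the 11 AM libraries alone. The higher genes numbered 54 with a pseudocount of 5 TPM, and 170, 209, 383 and 51 under quantile normalization, rescaling, array weights and the 11 libraries. The lower genes numbered 11 with no filter, and 86, 714 and 12 under quantile normalization, array weights and the 11 libraries. With array weights 34.9% of calls were higher. Leaving out 1 library at a time gave 48 to 159 in all, 37 to 84 higher and 11 to 87 lower.

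AM of 0h and 6h share only 1 title code. With the title code as a replicate block over all 27 libraries, 15 genes were called between 6h and 0h, 15 higher and 0 lower, and 10 between 6h and 20h. AM libraries of the same code deviated from their group means with a median correlation of 0.329 (11 pairs, 7 over 0.1), against -0.102 for other pairs. For the pair that links 0h to 6h it was 0.467. Deviations cancel within a group, so those of the 2 libraries at 2h mirror each other, as do those at 20h. The gap between the medians is thus partly built in, and the pairs are not separate observations. The labels do not say what the code marks, and the block was kept as an alternative. The block gave 847 and 1014 genes for the responses against IM and iMo.

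The response against IM differed for 185 genes with a pseudocount of 0.1 TPM, 1403 with quantile normalization, 1301 with array weights, and 174 to 772 with 1 library left out. Against iMo the counts were 450 with no filter, 1253 with array weights, and 279 to 793. Rescaling made 45.2% of the latter calls higher in AM. Between 6h and 20h the 3 calls became 0 with a pseudocount of 0.1 TPM, 12 with 5 TPM, 1 with no filter, 13 with quantile normalization, 14 with array weights, 1 with the 11 AM libraries and 0 to 96 with 1 library left out. Between 6h and 2h, 1 gene was called with a pseudocount of 5 TPM. The cause of these changes was not tested. None of 61 single genes followed between 6h and 0h changed sign in any setting, but 30 were no longer called with a pseudocount of 5 TPM and 51 with the block. Without 6h A161219, 25 of 60 were no longer called, and without 6h B161219 23. TPM values give no depth, so no limit from counting could be set.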

Other observations

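The gene model 4931406C07Rik was among the 23 risers whose AM libraries of 6h all lay above IM and iMo, at 20.0 to 23.9 TPM in AM against 0.92 to 2.31 TPM in the 4 other libraries of 6h. Gpd1, a glycerol phosphate dehydrogenase, was at 13.6 to 17.6 TPM in AM and 0.32 to 0.656 TPM in the others, and Egfem1 at 5.59 to 7.09 TPM and 0.146 to 0.332 TPM. These genes were named after their values were seen. In the same libraries Serpina3g had a log2 fold change of 2.35 between 6h and 0h and Ccl17 one of 2.51, and neither passed the test.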
